A study of Arabidopsis thaliana with 6 samples.

Results

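The 51 genes described here encode proteins that copy nuclear DNA in Arabidopsis thaliana, some close relatives of these, and regulators of such genes, both activators and repressors. They were chosen by name, as the origin recognition complex (ORC), the loading factors CDC6 and CDT1, the MCM helicase, CDC45, GINS, the replicative polymerases, PCNA, replication protein A (RPA), FEN1, DNA ligase 1, ribonucleotide reductase, and E2F, DP, DEL1 and RBR1. The choice was made with earlier results of these data known. Each of the 51 was matched to 1 row of the 33511 in the deposited expression table. All 6 libraries were made from homozygous transgenic Col-0 seedlings carrying pER8 with the MUTE cDNA (the number of lines is not stated); in this vector a chimeric activator turns on the insert when estradiol is present. The seedlings were 4 days old and were bathed for 8 h in liquid medium with 10 µM estradiol (3 libraries) or with the solvent DMSO, called mock (3 libraries), with 40 to 50 seedlings per library. Mock seedlings carry the construct too, and no library of plants without it was analysed here, so what MUTE does and what the hormone or its activator does cannot be told apart. As background, the vector expresses its activator from a constitutive promoter, which is not limited to the stomatal lineage. The labels do not say whether replicates were grown apart, so p-values measure the spread between these libraries.

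Before DNA replication, ORC marks origins and, with CDC6 and CDT1, loads the ring of MCM2 to MCM7 around DNA. CDC45 and the GINS complex turn this ring into the active helicase, polymerase alpha and its primase start each strand, and polymerases delta and epsilon extend it with PCNA as their sliding clamp. Many of these genes are targets of E2F factors, which bind DNA with a DP partner and are held inactive by the retinoblastoma-related protein RBR1 until cyclin-dependent kinases release them. MUTE is a basic helix-loop-helix factor of the stomatal lineage, in which a guard mother cell divides once, symmetrically, into the guard cells of a stoma.

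Expression was given as FPKM, a read count scaled to transcript length and library size, so levels can be compared between genes per length. Between 8559 and 8679 rows were at 0 in the mock libraries and in estradiol 2, against 9514 in estradiol 1 and 9182 in estradiol 3. Absolute depth is unknown. MUTE itself was at 1.89 to 3.31 FPKM in mock and 2946 to 3049 FPKM in estradiol libraries. The photosynthetic marker RBCS1A, at 5872 to 6539 FPKM, and the root hair marker LRX1, at 12.1 to 19.8 FPKM, were both present, while the shoot stem cell markers WUS and CLV3 stayed at or below 0.08 FPKM. In whole seedlings, more cells of a type and more RNA per cell cannot be told apart.

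Most of the replication genes were higher after MUTE induction. Of the 51, 40 rose (78.4%), 1 fell (RNR2A) and 10 did not pass the threshold, a limma adjusted p of 0.05 over all genes tested. Across the 19134 genes tested, 23.3% rose and 12.9% fell, 36.2% in all. The groups did not overlap, with every estradiol value above every mock value, for 43 members (84.3%), against 33.7% of all genes, and lay in the opposite order for 1, against 17.4%. The median log2 fold change was 0.33, against 0.05 for all genes tested, and the median ratio of group means was 1.36. Fold changes are of log2(FPKM + 1), so that changes of the lowest genes come out too small. The largest ratio of means was 1.81, for TSO2. The direction of calls over all genes depended on scaling: 64.3% of them were higher as deposited, 52.8% when quantile normalized and 46.9% when divided by median-of-ratios size factors. Under these scalings 39 and 37 of the members rose, against 3449 and 3018 of the 19134 genes tested. RNR2A was the only member to fall under either.

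All 51 members passed the filter of 1 FPKM in at least 3 libraries. ORC2 passed only through its estradiol libraries, and CDC6B reached 1 FPKM in only 1 mock library. Among the 49 at 1 FPKM or more in every library, 39 rose and 1 fell. These calls are from the fit of 19134 genes, of which 23.3% rose and 12.9% fell. The share among all genes at that level in every library was not computed. Without any filter 40 of the 51 rose, where 14.9% of the 26727 genes then tested rose and 9.12% fell. Mock 3 held the lowest of the mock values for 37 of the 51 genes, and its median over the members was 0.957 of the gene's mock mean. Without it, 37 members rose, as did 3171 of the 19134 genes tested.

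**Figure D1:**
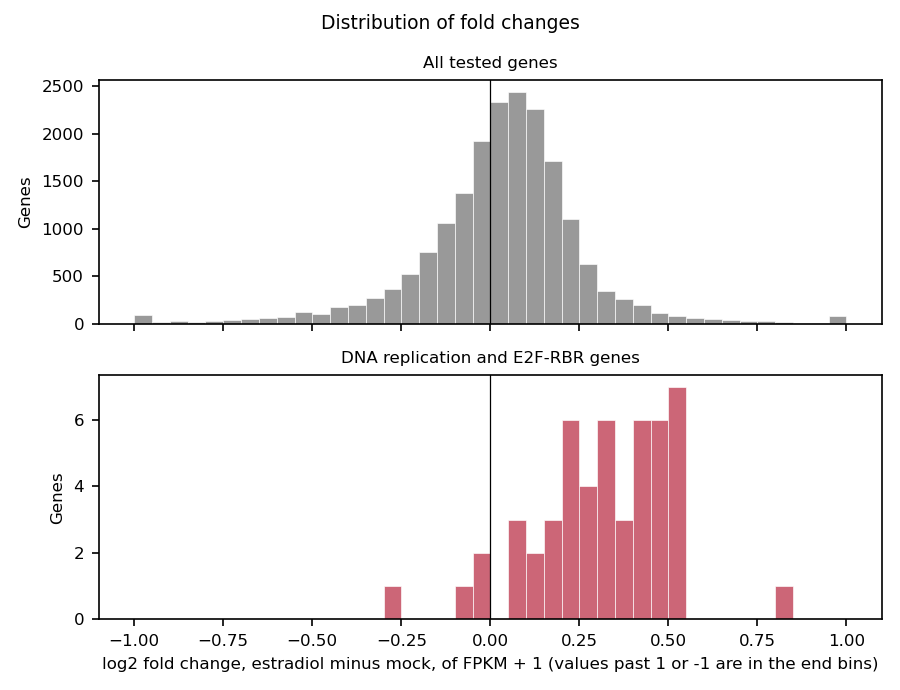
Number of genes (vertical axes) by log2 fold change of FPKM + 1, estradiol minus mock (horizontal axis, bins of 0.05), for the 19134 genes tested (upper panel) and the 51 replication and E2F-RBR genes (lower panel). The median is 0.05 in the upper panel and 0.33 in the lower, and 47 of the 51 genes lie above 0.

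**Figure D2:**
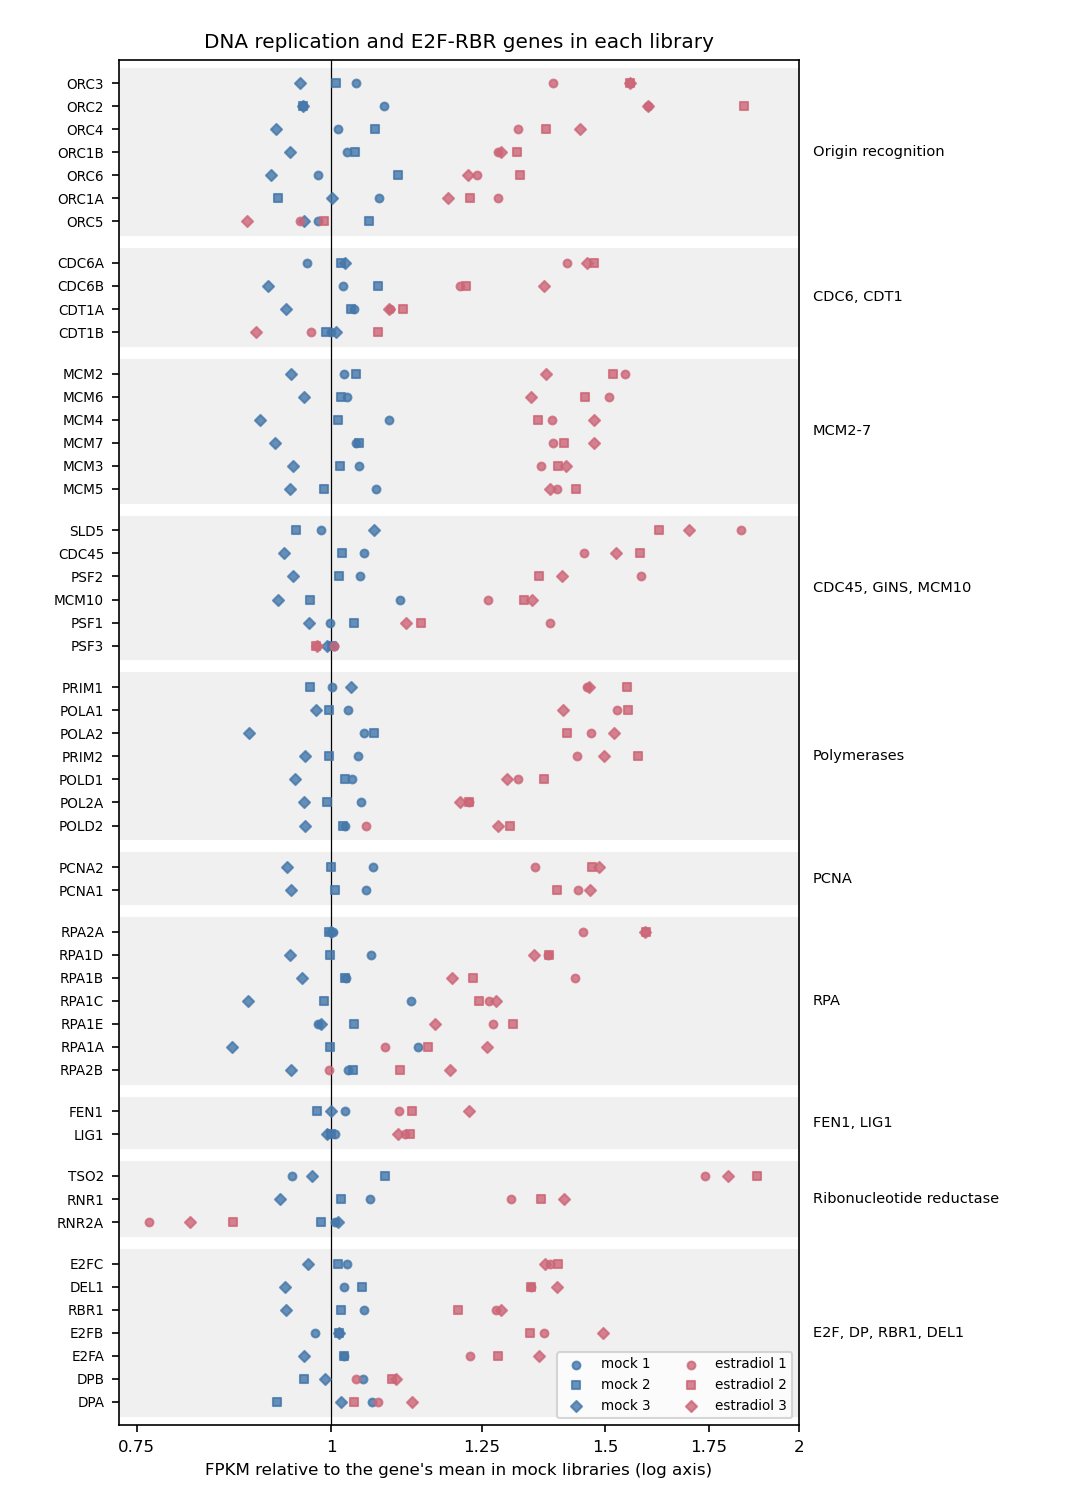
FPKM of each gene in each library divided by that gene's mean over the 3 mock libraries (horizontal log axis), with mock libraries in blue and estradiol libraries in red, by class of protein. The median over the genes is 1.34 in estradiol 1, 1.34 in estradiol 2 and 1.36 in estradiol 3, and RNR2A is the 1 gene whose estradiol values all lie below its mock values.

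The promoters were searched for the E2F motif in its textbook form, the words TTTCCCGC, TTTGGCGC, TTTGCCGC and TTTCGCGC on either strand, from 250 bases before to 50 bases after each annotated gene start (RefSeq annotation of TAIR10.1). At least 1 match was found in 19 of the 51 promoters (37.3%), against 1.76% of 27443 promoters of protein-coding nuclear genes. TTTCCCGC was in 15 of them and TTTGGCGC in 6, and the other words were in 0. Of the 22 matches, 17 began within 100 bases upstream of the start. The windows below, of 30 bases on the gene's strand, show the match in capitals for genes of 5 classes, among them both words and both orientations; GCGGGAAA and GCGCCAAA are the words as read on the opposite strand.
MCM2: tggcgccaataTTTCCCGCctaatcgacga
MCM4: cagtaataatgGCGCCAAAatcaagtgaag
MCM5: cggcccatcagTTTCCCGCcacattgttcc
MCM6: tatactttttaGCGGGAAAatgttagagga
ORC3: gggtcacgaatTTTCCCGCcaaaaagagcg
PSF2: ctatcatcggaTTTCCCGCcatcgtagaga
POLA1: atcgtgtcgatTTTCCCGCcatctccattt
PRIM1: agtttttccccGCGCCAAAtttgccctagt
RBR1: caaatatgtaaTTTCCCGCgtgacctaaac

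These windows are, in the same order, chr1:16970189-16970218 (plus strand), chr2:7130746-7130775 (minus), chr2:3527501-3527530 (minus), chr5:18010695-18010724 (minus), chr5:5474305-5474334 (plus), chr3:3974425-3974454 (minus), chr5:26776891-26776920 (plus), chr5:16760806-16760835 (plus) and chr3:3919417-3919446 (minus). Of the 19 members with a match, 18 rose, with a median log2 fold change of 0.43, and the remaining one, CDC6B, did not pass. Of the 32 without a match, 22 rose and 1 fell, with a median of 0.28; TSO2 and both PCNA genes are among them. With the members left out, 31.2% of 320 tested genes with a match rose, against 23.6% of 17708 without one. The site II element TGGGCC, which none of the 4 E2F words contains, was in 26 of the 51 member promoters and in 15.5% of all promoters. Of the members with it 73.1% rose, and of those without it 84.0% rose. With the members left out, 20.2% of 3444 tested genes with it rose, against 24.6% of 14584 without it, the same direction. A match shows only that these letters are present, and the fold changes of members with and without one were not tested against each other.

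**Figure D3:**
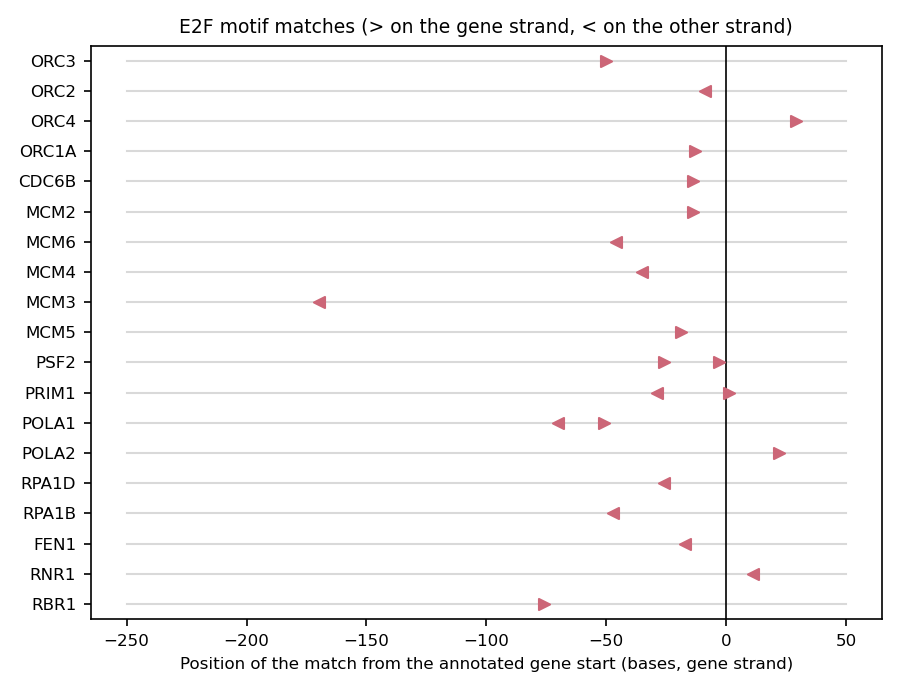
Start of each E2F motif match (horizontal axis, bases from the annotated gene start, with the searched window in grey) in the 19 members that have one. Of the 22 matches 18 lie upstream of the start and 4 after it, and MCM3 has the match farthest upstream, at -170.

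The origin recognition complex binds origins and recruits the loading factors. Of its 7 genes 6 rose. ORC3 (AT5G16690) had the largest log2 fold change of the class, with 2.64, 2.56 and 2.43 FPKM in mock and 3.53, 3.96 and 3.96 FPKM in estradiol libraries. The groups did not overlap, and the fold change was 0.44 (SE 0.0578, limma adjusted p 0.000901). ORC2 was below 1 FPKM in every mock library (0.98, 0.87 and 0.87) and at 1.45, 1.67 and 1.45 FPKM with estradiol. Its ratio of means was 1.68, against 1.501 for ORC3, so the order of ORC2 and ORC3 depends on the added 1. ORC1 is encoded by 2 genes: ORC1B, at 5.67 ± 0.294 and 7.34 ± 0.108 FPKM (SD, n = 3), rose by 0.32, and ORC1A, at 2.08 ± 0.155 and 2.56 ± 0.0954 FPKM, by 0.21. ORC1A lost the threshold under 5 of 12 alternatives, and 34.2% of its exonic 50-base stretches are shared with other genes, most with the antisense AT4G06210. ORC5 (AT4G29910, listed as EMB2798) stood apart from the other subunits: it was at 6.30, 6.79 and 6.17 FPKM in mock and 6.13, 6.35 and 5.67 FPKM with estradiol, so that the groups overlapped (log2 fold change -0.07, 95% interval -0.20 to 0.05).

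The loading factors had the lowest median log2 fold change of the classes, 0.15, with 1 of 4 past the threshold. By the median ratio of means, 1.183, they lay above FEN1 and LIG1, at 1.135. CDC6A (AT2G29680), which the table lists as CDC6, was at 1.36, 1.43 and 1.44 FPKM in mock and 2.0, 2.08 and 2.06 FPKM in estradiol libraries, without overlap. It rose by 0.34 (SE 0.0539, limma adjusted p 0.00226). Its partner CDC6B (AT1G07270) went from 0.933 ± 0.0764 to 1.18 ± 0.0839 FPKM (SD, n = 3) and did not pass (limma adjusted p 0.0691). CDT1A (AT2G31270, listed as ATCDT1A), the more abundant CDT1 gene, was at 9.96, 9.91 and 9.01 FPKM in mock and 10.5, 10.7 and 10.5 FPKM with estradiol. These values did not overlap, but the fold change of 0.12 (95% interval 0.02 to 0.23) did not pass (limma adjusted p 0.0706). CDT1B (AT3G54710) was at 5.14, 5.10 and 5.18 FPKM in mock and 4.99, 5.51 and 4.6 FPKM with estradiol, on both sides of the mock values (-0.03, 95% interval -0.17 to 0.11).

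The 6 subunits of the MCM ring rose together and by nearly the same amount. Their log2 fold changes ran from 0.43 (MCM5) to 0.50 (MCM2), a range narrower than the 95% interval of any single subunit, and their ratios of means from 1.39 to 1.48. MCM2 (AT1G44900) was at 6.05, 6.16 and 5.59 FPKM in mock and 9.17, 9.01 and 8.16 FPKM in estradiol libraries (SE 0.0563, limma adjusted p 0.000469). MCM3 (AT5G46280), the most abundant subunit, was at 13.6, 13.3 and 12.4 FPKM in mock and 17.9, 18.3 and 18.5 FPKM with estradiol. MCM7 (AT4G02060), listed as PRL after its older name PROLIFERA, went from 6.29 ± 0.436 to 8.97 ± 0.286 FPKM (SD, n = 3). Summed over the ring, the libraries held 45.0 to 50.4 FPKM in mock and 68.1 to 68.4 FPKM with estradiol, so the sums lay closer together with estradiol. For single subunits, the SD was wider with estradiol for MCM2 and MCM6 and narrower for MCM3, MCM4, MCM5 and MCM7.

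Of the factors that activate the helicase, CDC45, MCM10 and 3 of 4 GINS genes rose. CDC45 (AT3G25100) was at 4.13, 4.00 and 3.67 FPKM in mock and 5.72, 6.21 and 6.0 FPKM in estradiol libraries, a fold change of 0.50 (SE 0.0542, limma adjusted p 0.00037). The GINS subunit SLD5 (AT5G49010), listed as EMB2812, had the second-largest ratio of means among all members, 1.72, from 1.37, 1.32 and 1.48 to 2.55, 2.26 and 2.36 FPKM. PSF2 rose by 0.39. PSF1 rose by 0.24 (limma adjusted p 0.0374), with the estradiol value of library 1 (7.65 FPKM) above those of libraries 2 and 3 (6.32 and 6.18). It did not pass under 7 of 13 alternatives (limma adjusted p up to 0.110), among them both scalings, no filter and leaving out any mock library. Leaving out estradiol 1 lowered its fold change to 0.15 (limma adjusted p 0.0645). The PSF3 (AT1G19080) row was level in every library, at 4.67 to 4.72 FPKM in mock and 4.59 to 4.72 FPKM with estradiol (log2 fold change -0.02, 95% interval -0.11 to 0.08). Of the 50-base stretches of PSF3, 39.4% are shared with other genes, most with the locus AT3G55490. The row of AT3G55490, at 8.50 ± 0.422 and 9.01 ± 0.805 FPKM (SD, n = 3), did not pass either (0.07, limma adjusted p 0.416). The division of fragments between these copies is uncertain.

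Within the polymerases, the genes of polymerase alpha and its primase had the largest changes. The catalytic subunit POLA1 (AT5G67100), listed as ICU2, was at 6.49, 6.31 and 6.19 FPKM in mock and 9.66, 9.82 and 8.92 FPKM in estradiol libraries. It rose by 0.51 (SE 0.0474, limma adjusted p 0.000176). The small primase subunit PRIM1 (AT5G41880) rose by the same amount, from 6.70, 6.49 and 6.89 to 9.77, 10.4 and 9.81 FPKM (SE 0.0435). POLA2 rose by 0.49 and the large primase subunit PRIM2, listed as EMB2813, by 0.45. PRIM2 is lower, at 2.56 FPKM in mock, so the added 1 lowers its fold change more. By the plain ratio of means PRIM2 was the largest, at 1.505, against 1.496 for POLA1, 1.492 for PRIM1 and 1.469 for POLA2. The polymerases that extend the strands changed less: POLD1, catalytic for delta, rose by 0.31, and POL2A, catalytic for epsilon and listed as ABO4, by 0.24. POL2A was at 4.37 to 4.75 FPKM in mock and 5.50 to 5.58 FPKM with estradiol, and 31.3% of its stretches are shared, most with the antisense neighbour AT1G08250. POLD2, the second delta subunit, was at 2.92, 2.91 and 2.75 FPKM in mock and 3.01, 3.73 and 3.66 FPKM with estradiol. Its fold change of 0.21 had a limma adjusted p of 0.0545. Leaving out estradiol 1 brought this to 0.00979 with a fold change of 0.28, and the alternatives reached 0.152. Whether alpha differed from delta and epsilon was not tested.

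Both PCNA genes rose by 0.51. PCNA1 (AT1G07370, listed as ATPCNA1) was at 27.3, 26.1 and 24.4 FPKM in mock and 37.3, 36.2 and 38.0 FPKM in estradiol libraries, and PCNA2 (AT2G29570, listed as ATPCNA2) at 26.1, 24.6 and 23.0 and then 33.2, 36.2 and 36.5 FPKM. Their ratio was 1.04 to 1.06 in mock and 1.001 to 1.124 in estradiol libraries, and the groups overlapped. The copies share no stretch of 50 bases, while 23.3% of the stretches of PCNA2 are shared, most with the antisense neighbour AT2G29560.

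RPA coats single-stranded DNA as a trimer, and Arabidopsis has several genes for its large and middle subunits. Of the 5 large-subunit genes 4 rose. RPA1D (AT5G61000), the most abundant, was at 14.2, 13.3 and 12.6 FPKM in mock and 18.4, 18.4 and 18.03 FPKM in estradiol libraries (0.43, SE 0.0462, limma adjusted p 0.000364). RPA1B, which with RPA1D is known to serve replication, rose by 0.33. RPA1C and RPA1E, which are known for DNA repair, rose by 0.28 and 0.23. RPA1A, known for its part in meiosis, was at 2.70, 2.37 and 2.05 FPKM in mock and 2.57, 2.74 and 2.99 FPKM with estradiol, with overlapping groups (0.16, limma adjusted p 0.153). The middle-subunit genes differed: RPA2A (AT2G24490), listed as ROR1, was at 3.31, 3.29 and 3.30 FPKM in mock and 4.79, 5.26 and 5.25 FPKM with estradiol (0.50, SE 0.0502, limma adjusted p 0.000254). RPA2B (AT3G02920) was at 2.87, 2.89 and 2.64 FPKM in mock and 2.79, 3.10 and 3.34 FPKM with estradiol and did not pass (0.10, 95% interval -0.05 to 0.25). For RPA2A, 37.9% of the stretches are shared, most with the antisense neighbour AT2G24480.

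The genes that join Okazaki fragments rose least among those that passed. LIG1 (AT1G08130), the ligase, was at 19.5, 19.4 and 19.3 FPKM in mock and 21.6, 21.8 and 21.4 FPKM in estradiol libraries. The difference was 0.15 (SE 0.0313, limma adjusted p 0.00783), and the SD within each group was 0.11 and 0.19 FPKM. The flap endonuclease gene FEN1 rose by 0.17, from 5.19 ± 0.11 to 5.99 ± 0.337 FPKM (SD, n = 3), but under 6 of 13 alternatives it did not pass (limma adjusted p up to 0.0864).

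Ribonucleotide reductase, which makes deoxyribonucleotides, had the widest contrast. TSO2 (AT3G27060, chr3:9979841-9981620, minus strand, TAIR10.1), a small-subunit gene and the highest expressed of the 51 per length, was at 87.1, 99.95 and 89.7 FPKM in mock and 161, 173 and 166 FPKM in estradiol libraries. It rose by 0.85 (SE 0.055, limma adjusted p 3.5e-05) and stood at the 99.5th percentile of fold changes among all genes tested. RNR2A (AT3G23580, chr3:8459838-8462815, plus strand), the other small-subunit gene among the 51, was at 14.6, 14.3 and 14.6 FPKM in mock and 11.1, 12.5 and 11.8 FPKM with estradiol. It fell by 0.28 on the log2 scale (SE 0.0478, limma adjusted p 0.00321), passed under all 13 alternatives and was the only member to fall. RNR1 (AT2G21790), the large subunit, was at 39.7, 38.0 and 34.7 FPKM in mock and 49.0, 51.1 and 52.9 FPKM with estradiol, a rise of 0.44. TSO2 was 5.98 to 7.004 times as high as RNR2A in mock and 13.8 to 14.5 times as high with estradiol.

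Among the regulators, the 3 E2F genes, RBR1 and DEL1 rose while the DP genes did not pass. None exceeded 8.22 FPKM in any library. E2FC (AT1G47870, listed as ATE2FC), which is mostly described as a repressor, was the highest E2F gene, at 3.19, 3.15 and 3.01 FPKM in mock and 4.31, 4.36 and 4.28 FPKM in estradiol libraries (0.37, SE 0.0462, limma adjusted p 0.000745). The activators E2FA and E2FB, which the table lists as E2F3 and E2F1, rose by 0.23 and 0.28. These genes are low, so the added 1 lowers their fold changes more. The plain ratios of means were 1.29 for E2FA, 1.403 for E2FB and 1.385 for E2FC. E2FA (AT2G36010) was at 1.56, 1.56 and 1.47 FPKM in mock and 1.88, 1.96 and 2.08 FPKM with estradiol, and E2FB (AT5G22220) at 1.09, 1.13 and 1.13 and then 1.53, 1.5 and 1.67 FPKM. Neither overlapped between groups. RBR1 (AT3G12280), which restrains the E2Fs, rose by 0.29, from 6.71, 6.48 and 5.98 to 8.16, 7.71 and 8.22 FPKM (SE 0.0514, limma adjusted p 0.00369). DEL1 (AT3G48160), an atypical E2F that acts without a DP partner and delays the start of endoreduplication, was at 1.89, 1.94 and 1.73 FPKM in mock and 2.49, 2.49 and 2.59 FPKM with estradiol, a rise of 0.30 (limma adjusted p 0.00414). DPA (AT5G02470) was at 2.29, 1.99 and 2.19 FPKM in mock and 2.31, 2.23 and 2.43 FPKM with estradiol (0.07, 95% interval -0.06 to 0.21). DPB (AT5G03415) was at 3.42, 3.13 and 3.23 FPKM and then 3.38, 3.57 and 3.59 FPKM (0.08, 95% interval -0.03 to 0.20). Both DP genes overlapped between groups.

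**Figure D4:**
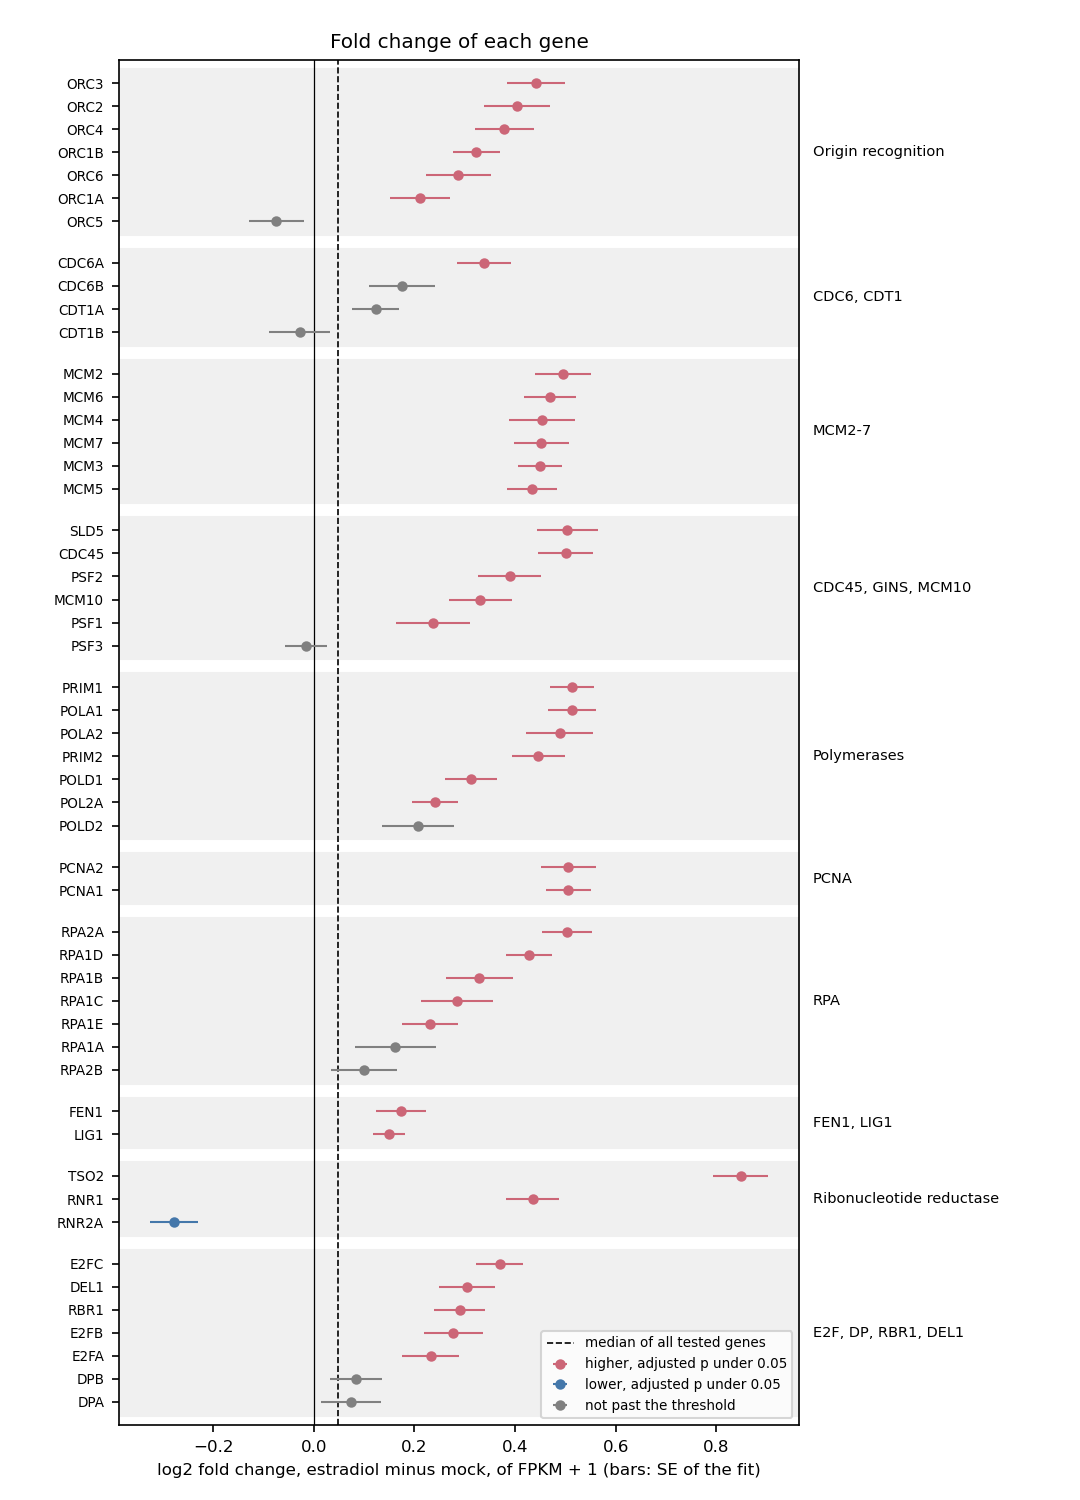
Log2 fold change of FPKM + 1, estradiol minus mock (horizontal axis, bars are the SE of the fit), of each gene by class, with genes past the threshold in red (higher) or blue (lower), others in grey and the median of all tested genes as a dashed line. The MCM ring lies between 0.43 and 0.50, TSO2 at 0.85 is farthest to the right and RNR2A at -0.28 farthest to the left.

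The balance within 10 pairs of related genes was compared as the log2 ratio of FPKM + 1 in each library. The design allows no two-sided exact permutation p below 0.1, so that no pair can pass 0.05, and the smallest adjusted value over the 10 pairs was 0.2. The ratio of TSO2 to RNR2A was higher with estradiol by 1.13, and that of RPA2A to RPA2B by 0.40, each without overlap (exact permutation p = 0.1). The ratio of E2FA to E2FC was lower without overlap, with a difference of -0.14 (exact permutation p = 0.1). The ratios of CDC6A to CDC6B and of CDT1A to CDT1B were also higher without overlap, by 0.16 and 0.15, but the plain FPKM ratios of both pairs overlapped between groups. The remaining 5 pairs overlapped, with DPA to DPB at -0.01 and PCNA1 to PCNA2 at -0.00034.

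**Figure D5:**
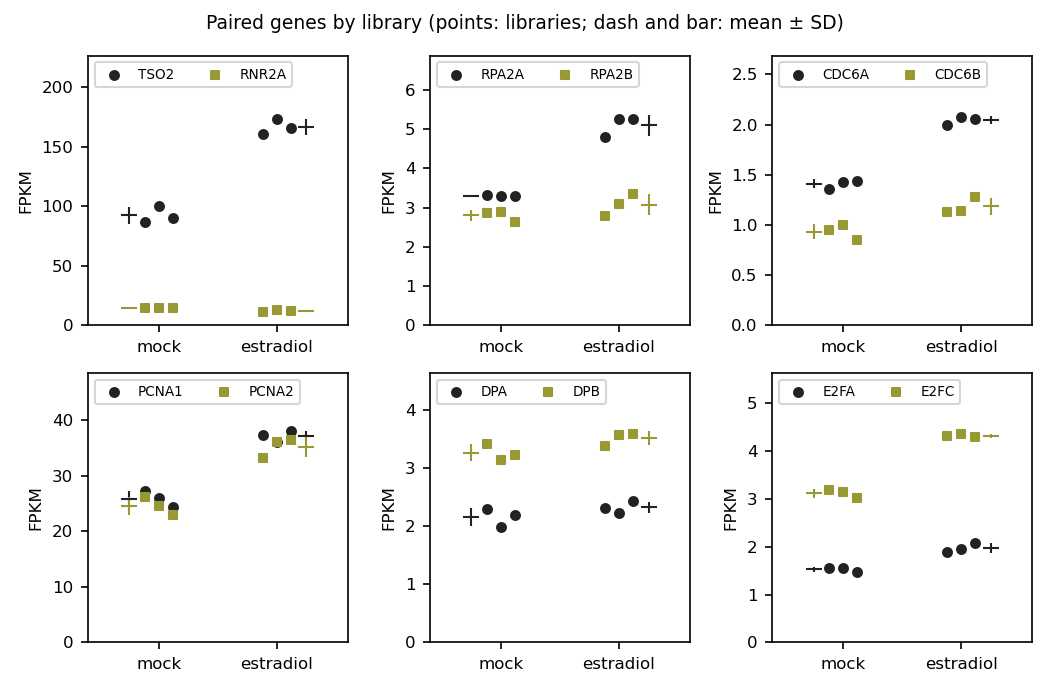
FPKM (vertical axes, from 0) of 6 pairs of related genes in the 3 mock and 3 estradiol libraries, with each library as a point and the group mean ± SD as a dash and bar. TSO2 and RPA2A are higher with estradiol while RNR2A is lower and RPA2B overlaps, whereas PCNA1 and PCNA2 are higher together.

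Genes that work beside the 51 were read from the same fit, in lists that were chosen with earlier results of these data known. Of 25 further replication and nucleotide genes 24 were tested, 17 rose and 0 fell, with a median log2 fold change of 0.28, against 23.3% higher, 12.9% lower and a median of 0.05 over all genes tested; the same background holds for the lists that follow. The largest changes were in nucleotide supply: TK1A, a thymidine kinase, rose by 0.70 (SE 0.0593), from 11.1 to 18.6 FPKM, and DUT1, which removes dUTP, rose by 0.67 (SE 0.0296), from 40.5 to 64.8 FPKM. RPA3A, the small RPA subunit, rose by 0.60, from 8.54 to 13.5 FPKM. Their relatives were near level: TK1B was at 28.5 and 27.96 FPKM and RPA3B at 31.3 and 32.3 FPKM, and neither passed. Of 13 other genes of the E2F and MYB3R network 11 were tested and 7 rose, led by the atypical E2F DEL3 (0.60), MYB3R4, an activator of mitotic genes (0.49), and MYB3R1 (0.35). One of the 7, TCX6, was at 0.81, 0.80 and 0.69 FPKM in mock and was tested only through its estradiol libraries, at 1.0, 1.32 and 1.23 FPKM. Of 12 DNA damage and checkpoint genes 10 were tested and 5 rose, among them the kinase WEE1 (0.48) and BRCA1 (0.39), while SOG1, the central DNA damage factor of plants, was at 5.64 and 6.45 FPKM and did not pass (0.17, limma adjusted p 0.0504). SMR5 and SMR7, known SOG1 targets, were low in all libraries, at most 0.81 and 2.08 FPKM.

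Cell type markers moved in these libraries as well. Of 7 stomatal lineage markers, MUTE included, 5 rose and 1 fell (EPF2), among them TMM from 10.13 to 50.05 FPKM and POLAR from 3.38 to 26.3 FPKM. MUTE is the induced gene itself, and BASL, at 0.85, 0.70 and 0.95 FPKM in mock and 1.43, 2.21 and 1.93 FPKM with estradiol, was tested only through its estradiol libraries. Of 8 meristem markers 5 were tested and 1, WOX5, rose (0.23). The summed level of the 8 was 33.2 to 36.3 FPKM in mock and 36.0 to 37.3 FPKM in estradiol libraries. SCR held most of it, at means of 22.3 FPKM in mock and 23.95 FPKM with estradiol. The summed level of 4 root markers was 47.0 to 50.8 FPKM in mock and 40.2 to 42.1 FPKM with estradiol. This sum mixes 2 directions: RHS14, EXPA7 and LRX1 were lower, while CASP1 rose from 14.03 to 17.27 FPKM. The 5 mesophyll markers summed to 7641 to 8160 FPKM in mock and to 10129, 8542 and 9726 FPKM in estradiol 1, 2 and 3, with 3 higher. RBCS1A held most of this sum, at means of 6089 FPKM in mock and 6333 FPKM with estradiol, and did not pass, nor did PSAF. CAB3 rose from a mean of 747 FPKM to 2239, 997 and 1706 FPKM in estradiol 1, 2 and 3. LHB1B2 rose from 256 FPKM to 746, 374 and 573 FPKM, and LHCA1 from 40.3 to a mean of 50.7 FPKM. The part of these shifts in the replication genes' changes was not tested.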

How the data were processed

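Messenger RNA of 6 seedling libraries was sequenced as paired reads of 50 bases, per the labels' protocols. The authors deposited 1 table of FPKM values with 2 decimals. Per the submitters' processing notes, TopHat2 2.0.13, DESeq2 and the build TAIR10 were used, with no role given, and the step that made the FPKM values, its strand setting and any scaling between libraries are not given in the sources used here. A strand-blind count could not separate genes from antisense neighbours. One numeric column (1) names no sample and was not used. Rows were matched to loci by names in the RefSeq annotation of TAIR10.1 (96.8% of 33511 rows), which also gave coordinates and sequences.

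The 19134 genes at 1 FPKM or more in at least 3 libraries entered a two-sided limma fit on log2(FPKM + 1). It used version 3.58.1 in R 4.3.3 and eBayes with trend, with no covariate. P-values were adjusted over all these genes by Benjamini-Hochberg. The fit was also run on simulated data in which few genes changed. Those data had no shift over all genes, so they do not bear on scaling here. Ratios of related genes had exact permutation tests (scipy 1.17.1). Errors are SD of 3 libraries or SE of the fit. Alternatives were pseudocount 0.1, no filter, a filter at 5 FPKM, 2 scalings, no trend, a replicate block and leaving out each library. Named genes were all regulators, the extremes of each class, members that fell or did not pass, paired genes and the 3 largest changes of each further list; other genes were named after their values were seen. One gene of these is not reported here. The members and lists were chosen with earlier results of these data known.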

Additional observations from a re-analysis of the deposited data

How the results depend on the processing

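The count of members that rose was 37 to 42 of 51 under the alternatives that kept all members. In these fits 3018 to 4446 of all genes tested rose (19134 tested, or 26727 without a filter). With the filter at 5 FPKM, which leaves fewer genes by construction, 25 of 29 members and 3726 of 12301 genes rose. RNR2A fell under every alternative run. Across the fits that left out 1 library, 37 to 39 members rose and 5337 to 5794 genes passed, of which 3171 to 3631 were higher. The members' median log2 fold change was 0.43 with a pseudocount of 0.1 (0.4268), 0.4283 with the filter at 5 FPKM, 0.2844 when values were quantile normalized, 0.2776 when size factors (median of ratios) were applied, and 0.2865 to 0.3443 when a library was left out; the cause was not tested. Of single members, CDT1B, near 0, was positive when estradiol 3 was left out (leave-one-out values -0.08423 to 0.02439). Of 641 combinations of a member and an alternative, 617 kept sign and side of the threshold, 18 lost it (ORC1A, PSF1 and FEN1) and 5 gained it (CDC6B and POLD2). Deviations of same-numbered libraries had correlations of -0.006, 0.047 and -0.002, within the range of -0.051 to 0.053 over all pairings of a mock and an estradiol library. These values show no sign of pairing but cannot show whether the libraries were paired in the experiment. With the replicate block, 40 members rose and 6038 genes passed, 3813 of them higher, and no member's call changed. The number of pairs without overlap was 4 with a pseudocount of 0.1 and 6 to 7 without 1 library, against 5. Depth is unknown, so its effect on low genes such as E2FB and CDC6B could not be measured.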
